A study of Mus musculus with 12 samples.

Results

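Striatal and cortical microglia of the adult mouse were compared in 6 of the study's 12 bulk RNA sequencing libraries, the 3 labelled striatum against the 3 labelled cortex. The libraries were chosen by their region label alone, and the comparison ran over the 12217 genes that passed a filter on low counts, of 23337 gene symbols in the table. All 6 libraries came from wild-type male mice, with no treatment named in the labels, of the C57BL6N strain at postnatal day 60. Each was made from 3000 sorted cells, CD45 low and CD11b+ within a TMEM119+ gate, from tissue of 1 region pooled from 3 to 5 mice. The other 6 libraries, 3 of hippocampus and 3 of cerebellum, were prepared in the same way and served to estimate the spread and to place a difference. The labels do not say that the pools of a region held different mice. A p-value here therefore reflects how far these libraries lie apart, and that may be technical.

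Microglia are the resident macrophages of the brain. They depend on signalling through the receptor Csf1r, survey the tissue with motile processes guided by the purine receptor P2ry12, and clear debris and synapses through lysosomes. Striatum is built largely of inhibitory medium spiny neurons and is crossed by myelinated fibre bundles, and cortex holds mainly layered excitatory neurons, so the cells survey unlike surroundings in the 2 regions.

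The data showed no gene past the threshold between striatum and cortex. The share of genes at an unadjusted p under 0.05, 5.59%, was close to what that p allows without any difference. The differences described here lay below the threshold and were of moderate size. Ccr1 and Cd74, genes of inflammatory cell trafficking and antigen presentation, lay about 3-fold lower in striatum, and the serine synthesis enzyme Phgdh lay about 2-fold lower. The Y-linked demethylase gene Kdm5d, the membrane remodelling gene Brox and the sheddase gene Adam9 lay higher. Among gene groups, ribosome production, cholesterol synthesis and glycolysis sat on the lower side in striatum, and homeostatic, lysosomal and cytokine receptor genes sat on the higher side by smaller amounts. Much of what lay below the threshold leaned on 1 library of each region.

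The 6 libraries held between 6479839 counts (striatum 2) and 14833340 counts (cortex 2). Striatum 2 stood apart. Of the 10018 genes that averaged 50 counts or more over the 12 libraries, 986 had no count in it (9.84%), against 4 to 29 in the other 5 libraries. Its correlations with those 5 ran from 0.748 to 0.771 (Pearson, log2 CPM), and those among the 5 from 0.876 to 0.926. Cortex 1 stood apart less: it was above all other 5 libraries in 25.1% of tested genes, against 11.0% to 13.6% in cortex 2, cortex 3, striatum 1 and striatum 3. Results are therefore given with all 6 libraries and, as "without both", with striatum 2 and cortex 1 left out.

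The sorted cells carried the microglial identity genes in every library. Tmem119, whose protein was used for the gate, was at 2601, 2107 and 1341 CPM (the read count relative to the library size, scaled by TMM) in cortex 1 to 3 and at 2204, 1504 and 1489 CPM in striatum 1 to 3. Cx3cr1, the fractalkine receptor, was at 3065, 3463 and 1769 CPM in cortex and 2290, 3348 and 2778 CPM in striatum. The 2 regions overlapped in both genes. Of 12 endothelial markers, 9 had counts, summing to 67.7, 52.3 and 41.3 CPM in cortex and 57.3, 0.81 and 53.3 CPM in striatum. The others, Cldn5, Tek and Esam, had no count in any of the 6 libraries. Of 13 T, B and NK cell markers in the table, 6 had counts. Among those without any were Cd3e of T cells and Ms4a1 of mature B cells. Xist, the transcript of the silenced X chromosome in females, had none either. A count of 0 allows up to 3 counts, which is 0.485 CPM in the smallest library, and this floor covers counting error only.

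Other cells were detected at low and uneven levels. Of 13 choroid plexus and ependymal markers, 7 were tested and all 7 had a fitted difference above 0 (median log2 2.93, and 0.44 without both). Their summed level was 3.19, 24.5 and 131 CPM in cortex and 51.0, 908.5 and 132 CPM in striatum, so striatum 2 held by far the most. Transthyretin, Ttr, the abundant secreted protein of choroid plexus, made up most of it, at 0, 15.0 and 75.5 CPM in cortex and 35.2, 579.8 and 87.2 CPM in striatum. Cd79a, a signalling chain of the B cell receptor, was at 33.3 CPM in striatum 1 and at 0 to 1.98 CPM in the other 5 libraries. General neuronal markers summed to 6.90 to 37.4 CPM in cortex and 7.84 to 18.8 CPM in striatum, and markers of border-associated macrophages to 681 to 1606 CPM and 919 to 2222 CPM, with Mrc1 at 252.6 to 711.7 CPM over the 6 libraries. The part of these cells in the differences below was not tested. In bulk samples, fewer cells of a type and less RNA per cell cannot be told apart.

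Striatum libraries resembled each other no more than they resembled cortex libraries. Pairs of libraries from 1 region had a mean correlation of 0.854 (Pearson, log2 CPM) and pairs across the regions 0.855. The difference was -0.000232 (exact one-sided permutation test over 3 against 3 libraries, p = 0.5, where the smallest p possible is 0.1). The median gene had an SD of 0.62 on the log2 CPM scale between striatum libraries and 0.45 between cortex libraries.

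No gene passed an adjusted p of 0.05 between striatum and cortex (edgeR quasi-likelihood test with Benjamini-Hochberg adjustment, 0 of 12217 genes, 0.00%; smallest adjusted p = 0.798). At an unadjusted p under 0.05 there were 683 genes (5.59% of those tested), 440 higher in striatum (3.60%) and 243 lower (1.99%). If no gene differed, a share of about 0.05 would be at such a p, so the total was close to that share. The libraries of the 2 regions did not overlap in 563 higher genes (4.61%) and 728 lower genes (5.96%), and met both conditions in 255 higher (2.09%) and 185 lower genes (1.51%). With 3 against 3 libraries, non-overlap in about these shares of genes also arises without a difference. Over all tested genes the median log2 difference was -0.06, and the middle 50% lay between -0.46 and 0.34. Limma-voom passed no gene either, with 796 at an unadjusted p under 0.05. DESeq2 passed 13 of 11911 genes (0.109%), 10 higher and 3 lower. Of those 13, Cd24a and Cyfip2 had counts in striatum 1 alone and Ctf1 in striatum 2 alone. A further 9 were 1110020G09Rik, Adam9, Brox, Fbxl8, Kdm5d and Nhsl1 on the higher side and Ccr1, Cd74 and Phgdh on the lower side.

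**Figure D1:**
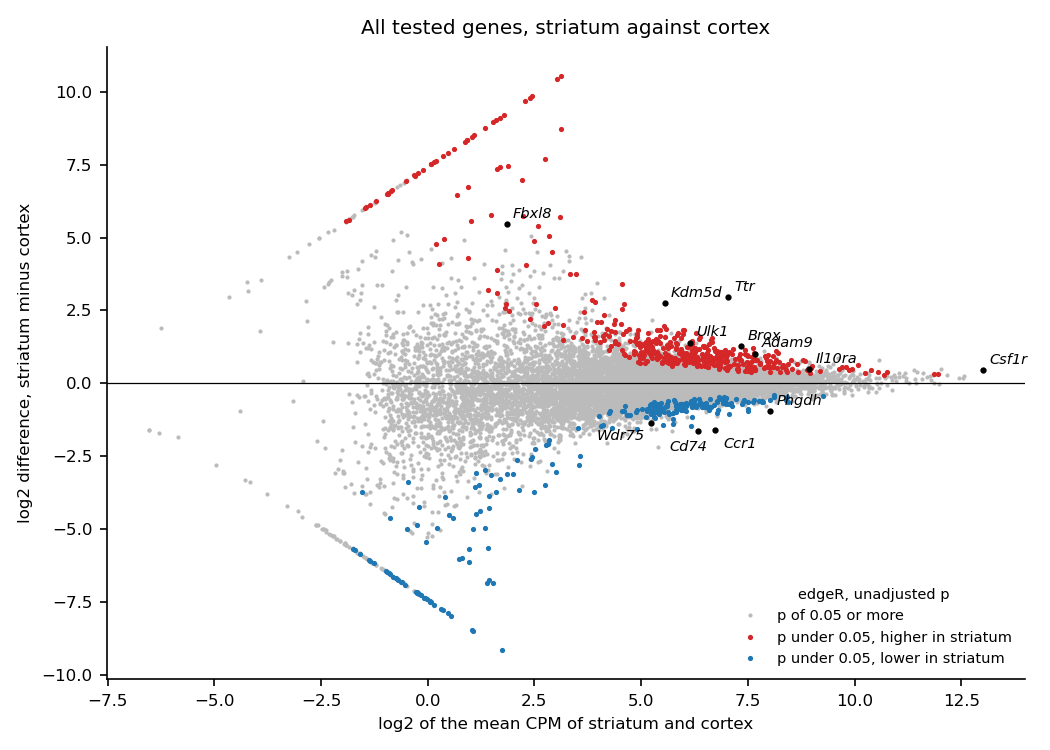
Each point is 1 tested gene with a count in either region: the x axis gives the log2 of its mean CPM over striatum and cortex, and the y axis its log2 difference, striatum minus cortex, from edgeR. Red and blue points have an unadjusted p under 0.05 (440 higher and 243 lower in striatum), none passed the adjusted threshold, and black points are named genes; the straight lines of points at the left are genes with no count in 1 of the regions.

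The genes at an unadjusted p under 0.05 leaned on striatum 2. In 361 of the 440 higher genes (82.0%) striatum 2 was above all other 5 libraries, and in 154 of the 243 lower genes (63.4%) it was below all of them, against 25.8% and 37.8% over all tested genes. Choosing genes as higher or lower in striatum itself raises such shares, so these 2 baselines are not a like comparison. Without striatum 2, 414 genes were at an unadjusted p under 0.05, of which 223 were among the 683. Of the 683, 503 were still at such a p without striatum 1 and 519 without striatum 3. Without cortex 1 there were 317, of which 233 were among the 683. Without both there were 303 (2.48%), 160 higher (1.31%) and 143 lower (1.17%), and 130 were shared: 19% of the 683 and 42.9% of the 303. Of the 683, 12 turned sign without both.

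On the lower side, the 3 genes with the smallest p were Ccr1, Phgdh and Cd74. Ccr1, a chemokine receptor of myeloid cells (chromosome 9, 123962124 to 123968692, minus strand, GRCm38), was at 149.6, 194.5 and 135 CPM in cortex 1 to 3 and at 68.6, 29.7 and 60.2 CPM in striatum 1 to 3. All 3 striatum libraries lay below all cortex libraries, with striatum 2 the lowest. The log2 difference was -1.59 (SE 0.35; edgeR quasi-likelihood test, adjusted p = 0.798) and -1.36 without both. Hippocampus was at 188.0, 136.8 and 175.4 CPM and cerebellum at 101.6, 129.3 and 54.6 CPM. Against the mean of those 2 regions striatum differed by -1.25 (SE 0.32) and cortex by 0.34 (SE 0.30), with neither passing after adjustment. Striatum thus held the low values, with 1 cerebellum library inside its range.

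Cd74 encodes the invariant chain that escorts MHC class II molecules. It was at 103.9, 126.6 and 136.1 CPM in cortex and at 54.9, 18.4 and 45.6 CPM in striatum, with no overlap. The log2 difference was -1.62 (SE 0.37; edgeR quasi-likelihood test, adjusted p = 0.798) and -1.39 without both. Against the mean of hippocampus and cerebellum, cortex was at 0.98 on the log2 scale (SE 0.31), with striatum at -0.64 (SE 0.33). The cerebellum libraries, at 39.9, 39.8 and 42.3 CPM, were inside the striatum range, and the hippocampus libraries, at 126.2, 62.0 and 95.1 CPM, were all above it, with 1 inside the cortex range. Of the 7 tested MHC class II genes, 2 lay above 0 and 5 below, and Cd74 alone had an unadjusted p under 0.05. H2-Ab1, a chain of the presenting molecule itself, differed by -0.03, and H2-DMa, which loads peptide, by -0.48 (-0.13 without both).

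Phgdh encodes the enzyme of the first step of serine synthesis (chromosome 3, 98313170 to 98339990, minus strand, GRCm38). It was at 402.4, 338.7 and 287.7 CPM in cortex and at 166.9, 153.2 and 206.1 CPM in striatum. The regions did not overlap, and striatum 2 lay close to striatum 1. The log2 difference was -0.97 (SE 0.22; edgeR quasi-likelihood test, adjusted p = 0.798) and -0.75 without both. Hippocampus and cerebellum, at 222.4 to 368.7 CPM, lay above all striatum libraries, and striatum differed from their mean by -0.69 (SE 0.19).

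The other lower genes named by the rule fell into a few roles. Wdr75, a nucleolar protein needed for ribosomal RNA processing, was at 46.1, 65.9 and 49.2 CPM in cortex and 22.8, 11.3 and 28.4 CPM in striatum (log2 difference -1.36, and -1.17 without both). Gnb2l1, now called Rack1, a scaffold on the small ribosomal subunit, was at 319.3, 210.3 and 190.8 CPM against 130.3, 93.4 and 147.1 CPM (-0.96, and -0.53 without both). Nol12, another nucleolar protein, was at 40.9, 30.2 and 17.5 CPM against 8.76, 8.73 and 13.2 CPM (-1.53, and -1.12 without both). The rule chose these 3 genes of ribosome production or function for libraries that did not overlap, so their separation is no further result. None passed the adjusted threshold.

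Adsl, an enzyme of purine synthesis, was at 133.5, 141.7 and 102.9 CPM in cortex and at 73.4, 46.4 and 82.2 CPM in striatum. Mad1l1, of the spindle checkpoint, was at 75.6, 81.2 and 77.4 CPM against 39.5, 12.5 and 36.8 CPM, with little spread in cortex. Fkbp1a, a prolyl isomerase, differed by -0.65, Maml1, a coactivator of Notch signalling, by -2.77 at 0.81 to 23.9 CPM, and Slfn5, of the Schlafen family, was at 0.38, 7.70 and 7.73 CPM against 0, 0 and 0.24 CPM. The 12 lower genes were chosen for libraries that did not overlap, which fixes their sign when libraries are left out. Without both they differed by -0.51 (Fkbp1a) to -5.78 (Slfn5).

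On the higher side, Kdm5d had the smallest p of all genes tested. It lies on the Y chromosome (897788 to 956786, plus strand, GRCm38) and encodes a histone demethylase. It was at 12, 15.6 and 8.88 CPM in cortex and at 63.4, 125.8 and 55.3 CPM in striatum. The lowest striatum library stood well above the highest cortex library, and striatum 2 was the highest. The log2 difference was 2.74 (SE 0.59; edgeR quasi-likelihood test, adjusted p = 0.798) and 2.27 without both. Hippocampus was at 15.3, 16.8 and 15.3 CPM and cerebellum at 10.7, 15.8 and 56.1 CPM, so 1 cerebellum library reached the striatum range. Of the 4 tested Y-linked genes, 3 lay above 0 and 1 below. The RNA helicase gene Ddx3y was at 62.1, 70.4 and 90.3 CPM in cortex and 117.0, 211.9 and 144.0 CPM in striatum (log2 difference 1.09, SE 0.32, and 0.70 without both). Eif2s3y, a translation initiation factor, overlapped between regions (0.63, and 0.13 without both), and the demethylase gene Uty was at 6.84 to 48.9 CPM in cortex and 31.0, 0.32 and 36.8 CPM in striatum. All mice were male, and the 6 X-linked homologs of these genes were split 3 above 0 and 3 below.

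Brox, a protein of the membrane-cutting ESCRT pathway (chromosome 1, 183276352 to 183297269, minus strand, GRCm38), was at 80.7, 114.8 and 90.5 CPM in cortex and at 165.1, 335.9 and 186.2 CPM in striatum. Striatum 2 was far above the other striatum libraries, which themselves lay above cortex. The log2 difference was 1.26 (SE 0.28; edgeR quasi-likelihood test, adjusted p = 0.798) and 0.77 without both. Adam9, a membrane protease that sheds surface proteins (chromosome 8, 24949611 to 25016927, minus strand, GRCm38), was at 105.9, 131.8 and 167.5 CPM in cortex and at 233.4, 330.3 and 258.8 CPM in striatum (1.02, SE 0.23, and 0.72 without both). Hippocampus and cerebellum held 185.6 to 274.6 CPM of Adam9, and it was cortex that lay below their mean, by -0.73 (SE 0.21), against 0.29 for striatum (SE 0.20).

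Fbxl8, which encodes an F-box protein of ubiquitin ligases (chromosome 8, 105264648 to 105269326, plus strand, GRCm38), was at or near 0 in cortex, at 0, 0.065 and 0.418 CPM. Striatum held 6.86, 10.8 and 3.41 CPM, hippocampus 3.50 to 6.75 CPM and cerebellum 3.44 to 9.46 CPM. Cortex therefore lay below all 9 other libraries. Its log2 difference from the mean of hippocampus and cerebellum was -5.19 (SE 1.20; it did not pass the edgeR test after adjustment), and that of striatum was 0.26 (SE 0.86). Nhsl1, an actin regulator, had no count in cortex and was at 3.67, 42.8 and 6.02 CPM in striatum, with 0 to 5.51 CPM in the other regions.

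The next higher genes by p included Ulk1, Ap3d1 and Acp2. Ulk1, the kinase that starts autophagy (chromosome 5, 110784488 to 110810097, minus strand, GRCm38), was at 37.1, 46.5 and 33.9 CPM in cortex and at 66.6, 148.6 and 93.9 CPM in striatum (log2 difference 1.39, SE 0.37, and 1.00 without both). Ap3d1, a subunit of the adaptor that sorts cargo to lysosomes, was at 101.7, 122.4 and 130.7 CPM against 215.7, 390.2 and 211.2 CPM (1.20, and 0.75 without both). Acp2, a lysosomal acid phosphatase, was at 320.3, 467.7 and 435.1 CPM against 610.7, 617.2 and 630.3 CPM (0.60, and 0.46 without both). Acp2 differed from the other 2 in that striatum 2 lay between striatum 1 and striatum 3. The remaining higher genes, the transcription factor genes Dmtf1 and Zbtb44, the splicing factor gene Cdc40 and the phosphatase gene Ptpdc1, differed by 1.15 to 2.87, and by 0.49 to 1.57 without both.

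**Figure D2:**
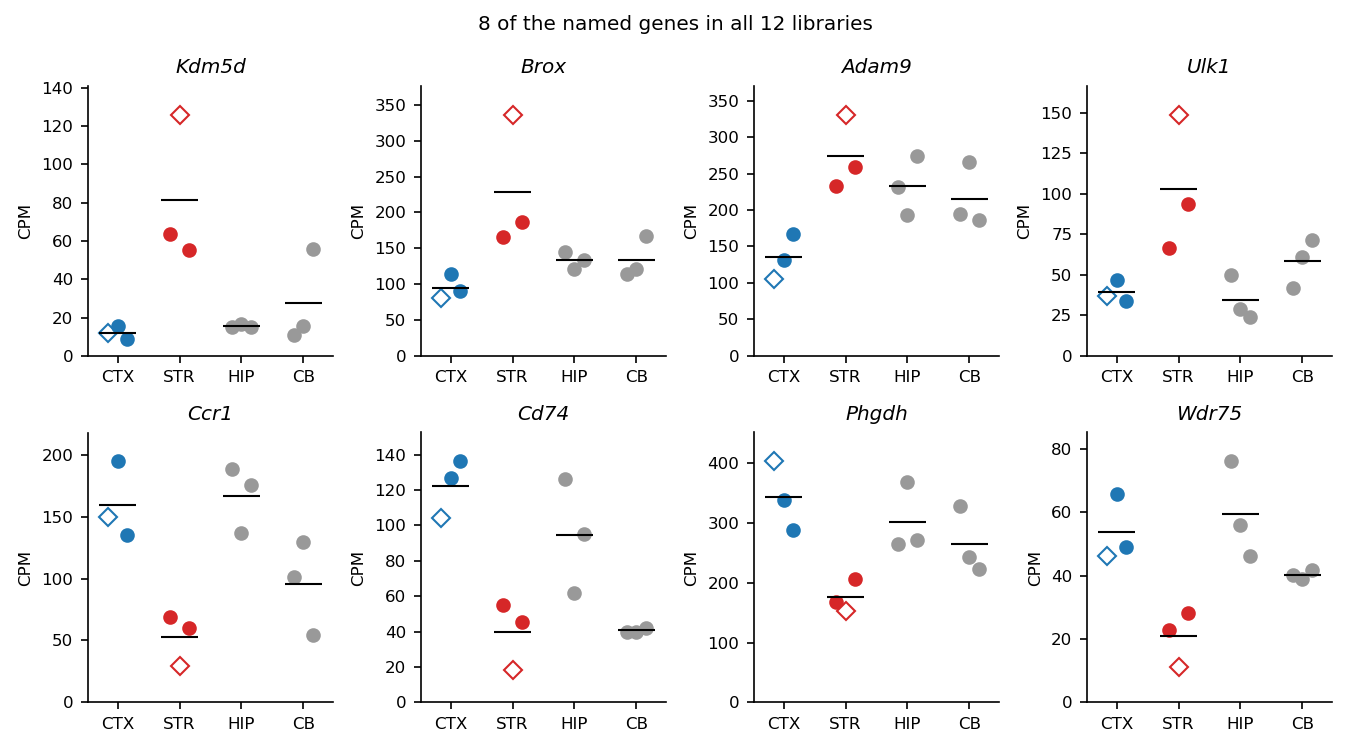
CPM of 8 named genes in cortex (CTX), striatum (STR), hippocampus (HIP) and cerebellum (CB), 1 point per library and a black line at the mean of 3; open diamonds are cortex 1 and striatum 2. All 8 were chosen for not overlapping between striatum and cortex, and striatum 2 was the most extreme striatum library in all 8.

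Without both libraries, the same rule named other genes as well. On the higher side these were Cybb, Tdrd7, Mzf1, Gzf1, Ppp1r13b and Fbxl8, and on the lower side Gsr, Trdmt1, Fads2, Ccr1, Cd74 and Maml1. Cybb was at 18.0, 0 and 0 CPM in cortex and at 5.56, 0 and 10.9 CPM in striatum. Its log2 difference was -0.12, and 9.50 without both, where cortex had no count. Gsr, the reductase that regenerates glutathione, was at 53.3, 61.8 and 66.1 CPM in cortex and at 26.6, 48.0 and 29.1 CPM in striatum, and striatum 2 lay closest to cortex (-0.81, and -1.20 without both). Mzf1, a zinc finger transcription factor, was at 10.1 and 8.23 CPM in striatum 1 and striatum 3, had no count in striatum 2, and was at 0 to 0.076 CPM in cortex. Fads2, a fatty acid desaturase, was at 8.25 to 15.3 CPM in cortex, at 0.71 and 1.19 CPM in striatum 1 and striatum 3, and at 17.8 CPM in striatum 2. For Gsr, Mzf1 and Fads2 striatum 2 went against the other striatum libraries, and for Cybb both libraries left out went against their regions. No gene passed the adjusted threshold in this comparison of 2 against 2 libraries either (edgeR quasi-likelihood test, 0 genes; 303 at an unadjusted p under 0.05).

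Ribosomal protein genes formed the group with the most uniform direction. Translation of their messenger RNAs is controlled as a unit through a run of pyrimidines at the start of the transcript. The stretches below are shown because they hold the pyrimidine letters CTTTC (in capitals) near the annotated start, though not in each case at the start itself. Each runs 5′ to 3′ on the gene's own strand, from 10 bases before the annotated start to 20 after, from RefSeq on GRCm38.p6.
Rpl7a, chr2:26910797-26910826, plus strand: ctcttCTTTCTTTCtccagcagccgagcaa
Rpl35, chr2:39005112-39005141, minus strand: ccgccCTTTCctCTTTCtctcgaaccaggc
Rpl13a, chr7:45128726-45128755, minus strand: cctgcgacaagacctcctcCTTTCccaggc
Rpl18, chr7:45718061-45718090, plus strand: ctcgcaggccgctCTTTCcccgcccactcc
Rplp2, chr7:141447641-141447670, plus strand: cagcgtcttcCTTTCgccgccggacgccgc
Rpl38, chr11:114668570-114668599, plus strand: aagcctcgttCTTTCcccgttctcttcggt

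CTTTC was searched from 20 bases before to 20 after the start. It was found on the gene's own strand in 9 of the 30 ribosomal protein genes matched in the RefSeq table (30.0%; 40 in the list) and in 1741 of all 27025 genes of that table (6.44%), and on the opposite strand (GAAAG) in 0 of 30 and in 1531 of 27025 (5.67%). Only this motif was searched. Of the 9 genes, those printed above hold it within the printed bases, and genes on chromosome 18 were left out of the printing. A match describes the letters and does not show a site in use.

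All 40 tested ribosomal protein genes had a log2 difference below 0 in striatum, beside 54.3% of all tested genes, with a median of -0.49. Of the 40, 5 were at an unadjusted p under 0.05 and 8 had libraries that did not overlap, where 1.99% and 5.96% of all genes did so on the lower side. Rplp0, a protein of the ribosomal stalk, was at 379.2, 246.9 and 202.9 CPM in cortex and at 190.5, 159.1 and 187.7 CPM in striatum (-0.63, and -0.25 without both). Rpl5, which carries the small ribosomal RNA to the nucleolus, was at 113.7, 86.3 and 67.9 CPM against 64.1, 43.3 and 59.1 CPM (-0.69, and -0.33 without both). In both genes cortex 1 was the highest library and cortex 3 came close to striatum. Of the genes printed above, Rpl7a differed by -0.78 (-0.32 without both), Rplp2 by -0.57 (-0.49 without both) and Rpl35 by -0.32 (-0.12 without both).

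The size of this group's difference depended on cortex 1. Its median was -0.46 without striatum 2, -0.19 without cortex 1 and -0.18 without both, and all 40 genes stayed below 0 without both. By library, the group's median gene was 0.69 above its mean over the 6 libraries in cortex 1 on the log2 scale, 0.10 above in cortex 2 and 0.16 below in cortex 3, against 0.16 to 0.22 below in striatum. Cortex 3 and the striatum libraries were thus at the same level. The counts of ribosomal protein genes and of their processed pseudogenes can be split between near-identical copies, so single members are uncertain.

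The 39 tested nuclear genes of oxidative phosphorylation moved with them: 37 lay below 0 and 2 above (54.3% of all tested genes lay below), with a median of -0.31, and 3 were lower at an unadjusted p under 0.05 (1.99% of all tested genes). Uqcrc2, a core subunit of respiratory complex III, was at 140.5, 99.0 and 109.9 CPM in cortex and at 65.7, 63.5 and 68.5 CPM in striatum (-0.82, and -0.64 without both). Ndufb8, a subunit of the first respiratory complex, was at 280.1, 154.6 and 181.7 CPM against 136.7, 88.3 and 148.1 CPM (-0.72, and -0.24 without both). Uqcrc2 was well separated, whereas Ndufb8 in cortex 2 and striatum 3 nearly met. The group's median was -0.09 without cortex 1 and -0.13 without both, with cortex 1 at 0.58 above the mean of the libraries and the other 5 at -0.18 to -0.03.

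Both groups have short transcripts, with median lengths of 705 and 699 bases. Over the 12074 tested genes with an annotated length (98.8%), the median difference ran from -0.18 in the shortest 20% of genes to 0.11 in the longest 20%, and from -0.07 to 0.02 without cortex 1. In cortex 1 the mean deviation ran from 0.27 in the shortest 20% to -0.18 in the longest 20%. The part of length in the group differences was not tested.

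**Figure D3:**
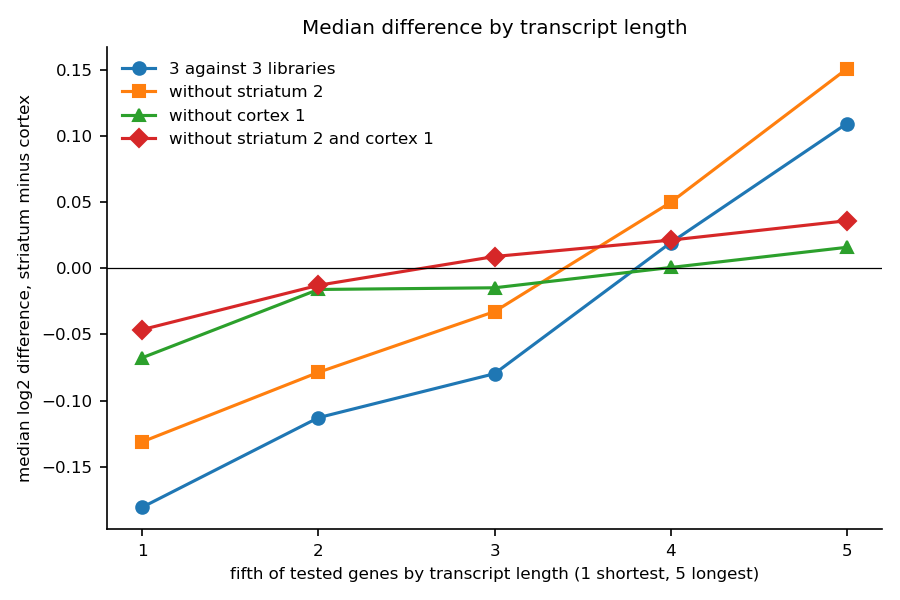
The x axis splits the tested genes into 5 equal groups by transcript length, and the y axis gives each group's median log2 difference, striatum minus cortex, with all 6 libraries and with libraries left out. The slope from -0.18 to 0.11 shrank to between -0.07 and 0.02 without cortex 1.

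Genes that build ribosomes kept their difference without cortex 1. Of the 23 tested genes of the nucleolus and ribosome biogenesis, 19 lay below 0 and 4 above, beside 54.3% of all tested genes below 0. Their median was -0.34, and 3 were lower at an unadjusted p under 0.05 (Wdr75, Bop1 and Npm1), beside 1.99% of all tested genes. The median was -0.28 without striatum 2, -0.36 without cortex 1 and -0.29 without both, and all 23 genes lay below 0 without both, beside 6056 of 12217 tested genes. Bop1, which matures the large subunit, was at 98.4, 102.6 and 88.9 CPM in cortex and at 57.6, 46.1 and 66.6 CPM in striatum (-0.77, and -0.63 without both). Npm1, nucleophosmin, was at 163.6, 147.5 and 116.4 CPM against 114.2, 91.7 and 102.4 CPM (-0.47, and -0.29 without both). By library, the group's median gene was 0.12 to 0.46 above the mean of the libraries in cortex and 0.13 to 0.26 below it in striatum, so that here the regions did not overlap.

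Cholesterol synthesis genes had the largest median of the metabolic lists. Of 22 tested, 19 lay below 0 and 3 above, beside 54.3% of all tested genes below 0. Their median was -0.75, and -0.68, -0.66 and -0.63 without striatum 2, without cortex 1 and without both. Cyp51, which demethylates lanosterol, was at 77.9, 168.5 and 72.2 CPM in cortex and at 32.9, 24.9 and 58.3 CPM in striatum (-1.45, SE 0.45, and -1.40 without both). Fdps, which makes farnesyl diphosphate, was at 94.6, 76.7 and 28.3 CPM against 39.4, 10.7 and 23.5 CPM (-1.44, and -0.74 without both). Sqle, a rate-limiting oxidase of the pathway, was at 96.3, 113.2 and 32.1 CPM against 49.6, 1.94 and 26.3 CPM. Fdps and Sqle overlapped between regions. Cortex 3 lay inside the striatum range in both, whereas in Cyp51 it lay near cortex 1. No member passed the adjusted threshold. By library, the group's median gene was at 0.80, 1.30 and 0.08 in cortex 1 to 3 and at 0.17, -1.49 and 0.03 in striatum 1 to 3, relative to the mean of the libraries on the log2 scale. Cortex 3 thus lay below striatum 1, and of the libraries left without both, cortex 2 alone stood apart. Srebf2, the transcription factor that drives the pathway, differed by -0.06.

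Of 20 tested glycolysis genes, 16 lay below 0 and 4 above (median -0.28, and -0.26 without both). Ldha, lactate dehydrogenase, was at 452.3, 409.1 and 352.4 CPM in cortex and at 256.1, 237.5 and 317.3 CPM in striatum (-0.58, and -0.41 without both). Tpi1, triose phosphate isomerase, was at 187.2, 186.9 and 153.3 CPM against 90.2, 162.9 and 126.5 CPM (-0.47, and -0.65 without both). Of 26 tested genes of replication and the cell cycle, 20 lay below 0 and 6 above (median -0.20, and -0.12 without both), and 5 were at an unadjusted p under 0.05, all lower, beside 54.3% below 0 and 1.99% lower at that p over all tested genes. Mcm3, of the replicative helicase, was at 414.7, 425.2 and 430.8 CPM in cortex and at 300.3, 165.9 and 340.8 CPM in striatum (-0.65, and -0.42 without both), and Tyms, thymidylate synthase, at 104.6 to 128.9 CPM against 46.2 to 86.6 CPM (-0.70, and -0.38 without both). Both were separated by region, with cortex tight and striatum 2 the lowest.

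**Figure D4:**
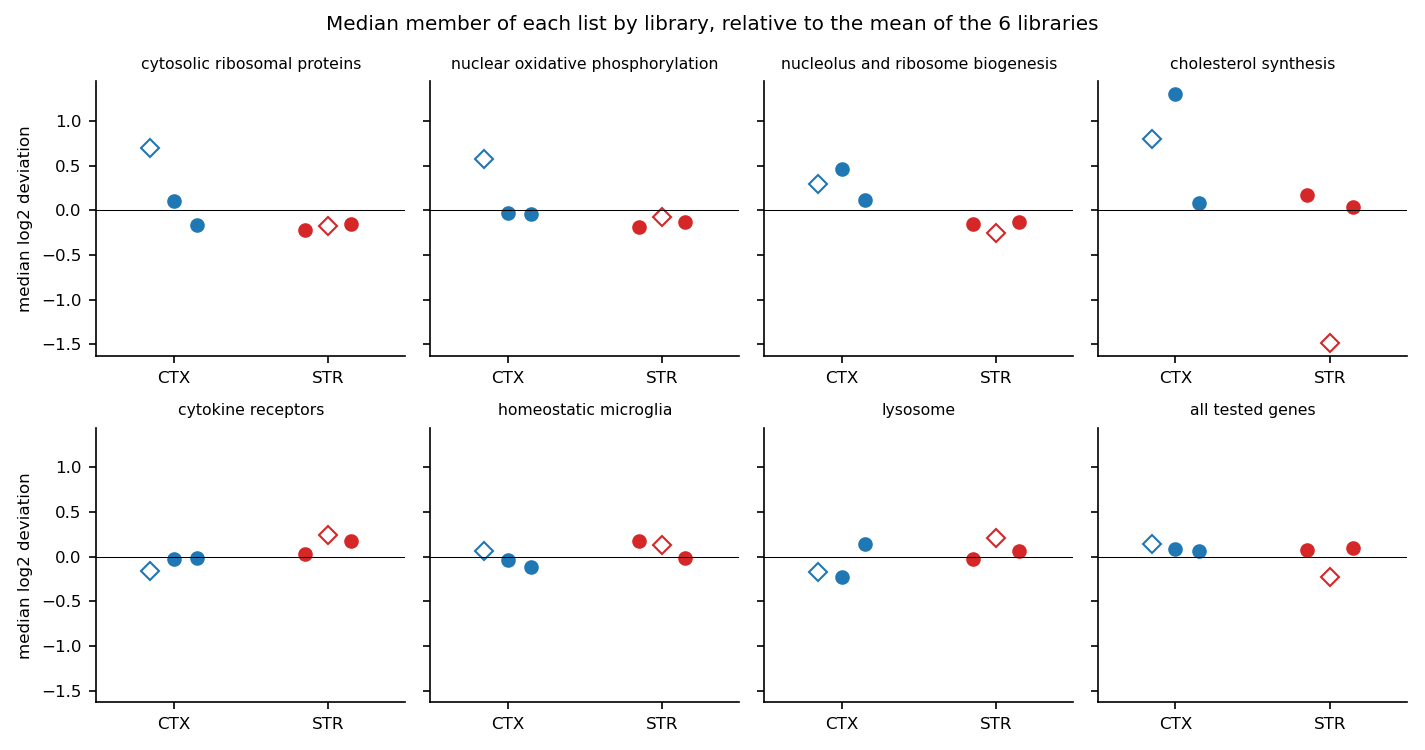
Each point is 1 library of cortex (CTX) or striatum (STR) and gives the median log2 deviation of a list's tested genes from their mean over the 6 libraries; open diamonds are cortex 1 and striatum 2. Ribosomal protein and oxidative phosphorylation genes were high in cortex 1 (0.69 and 0.58), whereas ribosome biogenesis genes were above 0 in all 3 cortex libraries and below 0 in all 3 striatum libraries.

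Homeostatic microglial genes lay slightly higher in striatum. Of 24 tested, 18 were above 0 and 6 below, beside 45.7% of all tested genes above 0, and the median was 0.19. It was 0.15 without striatum 2 and 0.17 without both, where 23 genes were above 0 and 1 below, beside 6131 of 12217 tested genes above 0. In cortex 1 to 3 the group's median gene was at 0.06, -0.03 and -0.11, relative to the mean of the libraries. In striatum 1 to 3 it was at 0.17, 0.13 and -0.01, so striatum 3 lay below cortex 1. Csf1r, on which microglial survival depends, was at 5691, 7173 and 7918 CPM in cortex and at 9637, 10740 and 8284 CPM in striatum. The regions were close but did not overlap, and the log2 difference was 0.46 (SE 0.15; edgeR quasi-likelihood test, adjusted p = 0.798) and 0.25 without both. P2ry12, which detects released nucleotides, was at 4171, 4085 and 4292 CPM in cortex and at 6022, 4758 and 4436 CPM in striatum (0.28, SE 0.17), and Itgam, the CD11b chain used in the gate, differed by 0.62 (0.35 without both).

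Cytokine receptor genes lay in the same direction: of 21 tested, 17 were above 0 and 4 below, beside 45.7% of all tested genes above 0. Their median was 0.25 (0.18 without both), and 6 were at an unadjusted p under 0.05, all higher (3.60% of all genes were). Il10ra, a receptor for the anti-inflammatory cytokine interleukin-10 (chromosome 9, 45253837 to 45269149, minus strand, GRCm38), was at 384.7, 425.9 and 412.7 CPM in cortex and at 579.6, 556.4 and 569.4 CPM in striatum. Both regions were tight and well apart, and neither striatum 2 nor cortex 1 was unusual. The log2 difference was 0.48 (SE 0.15; edgeR quasi-likelihood test, adjusted p = 0.798), 0.45 without both, and 0.44 to 0.51 whichever library was left out. Striatum differed by 0.07 from the mean of hippocampus and cerebellum (SE 0.13) and cortex by -0.41 (SE 0.13), so cortex held the low values. Csf3r, a receptor of granulocyte growth factor that microglia also express, was at 261.9, 273.9 and 383.4 CPM against 413.2, 444.7 and 445.8 CPM (0.50, and 0.38 without both). The other 4 were Il13ra1, Ifngr1, Csf1r and Tgfbr2, and Ifngr1, of the interferon gamma receptor, differed by 0.34 and by 0.32 without both. Tnfrsf1a, a receptor of tumour necrosis factor, differed by -0.17 and was on the lower side.

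Lysosomal genes lay higher by a similar amount: of 28 tested, 24 were above 0 and 4 below (median 0.20, and 0.13 without both), beside 45.7% of all tested genes above 0. In cortex 1 to 3 the group's median gene was at -0.17, -0.23 and 0.15, relative to the mean of the libraries. In striatum 1 to 3 it was at -0.02, 0.205 and 0.07, so cortex 3 lay above striatum 1 and striatum 3. At an unadjusted p under 0.05, 2 of the 28 were higher, a share near the 3.60% of all tested genes. Neu1, a sialidase, was at 112.0, 125.2 and 124.8 CPM in cortex and at 142.2, 273.8 and 142.4 CPM in striatum (0.62, and 0.19 without both), and striatum 2 alone was far from cortex. Lamp2, a membrane protein of the lysosome, overlapped between regions (0.45, and 0.17 without both). Of 20 tested genes of autophagy initiation, 12 were above 0 and 8 below, with a median of 0.32 and of 0.08 without both. Besides Ulk1, 3 were at an unadjusted p under 0.05, all higher, which makes 4 of 20 beside 3.60% of all tested genes: Pik3r4, the regulatory subunit of the lipid kinase of autophagy, at 27.2, 40.3 and 66.7 CPM against 78.5, 136.8 and 93.8 CPM (1.20, and 0.69 without both), Wipi2 (0.97, and 0.43 without both) and Ambra1 (0.80, and 0.40 without both).

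Other microglial programmes were split, or their balance changed with the libraries used. Of 25 tested genes of the disease-associated state 17 lay above 0 and 8 below, but 8 above and 17 below without both, and none was at an unadjusted p under 0.05. The lipid carrier Apoe was at 2887, 2147 and 5459 CPM in cortex and at 3464, 5672 and 5483 CPM in striatum, overlapping widely. Of 20 tested type I interferon response genes 8 were above 0 and 12 below (median -0.18, and -0.26 without both). Without both, 4 were above 0 and 16 below, beside 6056 of 12217 tested genes below. Stat2, a transcription factor of that response, lay higher, at 65.6, 67.2 and 67.1 CPM against 96.9, 183.0 and 103.5 CPM (0.94, and 0.58 without both), whereas Bst2, one of its target genes, overlapped between regions (-0.65). Of 11 tested chemokine receptor genes 5 were above 0 and 6 below: Cx3cr1 differed by 0.02 and Ccr1 by -1.59. Of 21 tested immediate early and dissociation stress genes 16 lay below 0, beside 54.3% of all tested genes (median -0.25, and -0.09 without both). Without both, 11 lay below 0 and 10 above. None was at an unadjusted p under 0.05 with all 6 libraries.

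**Figure D5:**
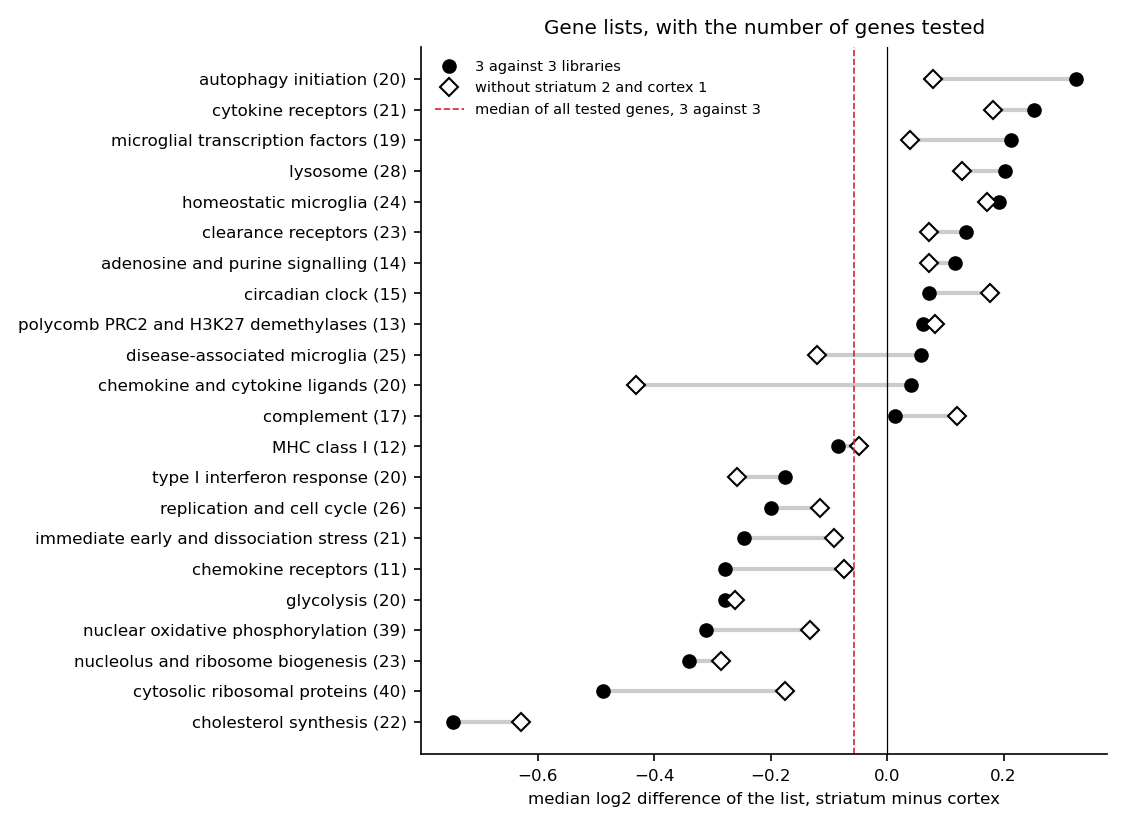
The x axis gives the median log2 difference, striatum minus cortex, over the tested genes of each list, whose number is in brackets; filled points use all 6 libraries, open diamonds leave out striatum 2 and cortex 1, and the dashed line is the median of all tested genes. Cholesterol synthesis (-0.75 and -0.63) and ribosome biogenesis (-0.34 and -0.29) lay lower under both, and homeostatic (0.19 and 0.17) and cytokine receptor genes (0.25 and 0.18) higher.

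Set against hippocampus and cerebellum, striatum had 385 genes higher (3.15%) and 171 lower (1.40%) at an unadjusted p under 0.05, and cortex had 47 higher (0.385%) and 100 lower (0.819%). No gene passed the adjusted threshold in either (edgeR quasi-likelihood test, 0 genes each; DESeq2 passed 1 for striatum and 6 for cortex). These comparisons share their striatum or cortex libraries with the comparison above. By these means, striatum lay farther than cortex from the other regions for Kdm5d (1.97 from the mean of the other regions, against -0.77 for cortex), Ulk1 (1.20 against -0.19), Wdr75 (-1.23 against 0.14) and Phgdh (-0.69 against 0.28). Cortex lay farther from them for Fbxl8, Adam9 and Il10ra, as given above. By list medians, cortex also lay farther than striatum for homeostatic (-0.16 against 0.02), cytokine receptor (-0.21 against 0.09) and lysosomal genes (-0.145 against 0.05). For cholesterol synthesis genes striatum lay farther (-0.43, against 0.33 for cortex). Ap3d1 lay between, with striatum at 0.52 and cortex at -0.68.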

How the data were processed

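Microglia of 4 brain regions were measured with 3 libraries each. Smart-seq v4 cDNA was made into Nextera XT libraries, per the labels' protocols. The authors deposited whole-number read counts per gene symbol, without normalization. Per the submitters' processing notes their tools were STAR 2.5.3a, HTSeq, Picard and Trim Galore 0.4.3, with the mm10 build. The annotation and the strand setting were not given in the sources used here. The kit does not mark strand, so genes that overlap on opposite strands cannot be told apart.

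In R 4.3.3, edgeR 4.0.16 was run on these counts: filterByExpr by region (minimum count 10, minimum total 15), TMM scaling, 1 mean per region over all 12 libraries, and the robust quasi-likelihood test for striatum minus cortex, with Benjamini-Hochberg adjustment over 12217 genes and a threshold of 0.05. SE values are from that fit. CPM uses TMM-scaled library sizes. Correlations used log2 CPM with a prior count of 2. Alternatives were DESeq2 1.42.0, limma-voom (limma 3.58.1), RLE scaling, other filters, the 6 libraries alone, a replicate block and leaving out libraries. Limma-voom with library weights, and the similarity value without striatum 2 and cortex 1, were added after seeing the data.

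Same-region libraries differed by far more than sampling noise (chi-square divided by its degrees of freedom 33.8 to 97.5), so none was counted as a copy. Gene coordinates and lengths are from GENCODE M21 (GRCm38), and sequences from RefSeq. The fit was tested on simulated data.

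The comparison, the gene lists and the rule for named genes were chosen with earlier results of these data known. The rule took, among genes whose 3 and 3 libraries did not overlap and leaving out predicted, clone-named and ribosomal protein genes, the 12 higher and 12 lower with the smallest p, 6 and 6 without striatum 2 and cortex 1, up to 3 members of each list with the smallest p, and a few fixed marker and Y-linked genes. Other list members, and the genes passed by DESeq2, were named after their values were seen. A few genes covered by the rule are not reported here.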

Additional observations from a re-analysis of the deposited data

How the results depend on the processing

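No gene passed the adjusted threshold in any edgeR or limma-voom setting. DESeq2 passed 13 genes between striatum and cortex, 1 for striatum and 6 for cortex against the mean of hippocampus and cerebellum. The 683 genes at an unadjusted p under 0.05 were 333 in a fit of the 6 libraries alone, 303 without both striatum 2 and cortex 1, 559 by limma-voom with library weights, and 317 (without cortex 1) to 1028 (without striatum 3) when 1 library was left out. The cause was not tested. The similarity difference of -0.000232 turned to 0.00132 with Spearman's correlation and ran from -0.0254 to 0.0339 when 1 library was left out (0.0316 without striatum 1, 0.0339 without striatum 3). Libraries with the same replicate number did not deviate together (r = 0.0183, -0.0167 and 0.049). So few values cannot show whether same-numbered pools shared mice. With the replicate number as a block the similarity difference was 0.029 (exact one-sided permutation p = 0.1) and 733 genes were at an unadjusted p under 0.05. The median of 3 tested T, B and NK cell markers turned from 3.29 to -0.16 by limma-voom and ran from -0.46 (without striatum 1) to 3.97 (without cortex 1) when 1 library was left out. Among gene lists, chemokine and cytokine ligands moved from 0.04 to -0.43 without both libraries, and type I interferon genes ranged from -0.80 by limma-voom to 0.13 without cortex 3. A count of 0 in striatum 2 allows up to 0.485 CPM, so low genes there are poorly bounded.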

Other observations

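Further microglial gene groups showed differences in single members more than as groups. Of 20 tested chemokine and cytokine ligand genes, 11 lay above 0 and 9 below in striatum (median 0.04, and -0.43 without striatum 2 and cortex 1). Ccl2, which attracts monocytes, was at 32.1, 31.6 and 25.7 CPM in cortex and at 10.4, 0 and 11.1 CPM in striatum. The 2 regions were far apart in all 6 libraries, at a log2 difference of -2.04 that did not pass (edgeR quasi-likelihood test, adjusted p = 0.798). Ccl12, a related ligand, was at 121.5 to 182.9 CPM in cortex and 92.0 to 137.7 CPM in striatum, overlapping (-0.47, and -0.51 without both). Il6, the gene of interleukin-6, was at 0.76 to 1.81 CPM in cortex and at 0, 0 and 0.32 CPM in striatum, where the floor of a count of 0 is 0.24 to 0.49 CPM.

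Among 19 tested transcription factor genes of microglia, 12 lay above 0 and 7 below (median 0.21, and 0.04 without both). Runx1, a factor of early myeloid development, was at 51.8, 61.3 and 65.2 CPM in cortex and at 88.2, 129.8 and 90.2 CPM in striatum (0.79, and 0.49 without both). Bhlhe41, a repressor in macrophages, went the other way, at 9.19 to 15.4 CPM against 4.02 to 6.26 CPM (-1.25, and -1.51 without both). Both were separated by region. P2rx7, an ATP-gated channel among the 14 tested genes of purine signalling (9 above 0, 5 below), was at 166.8, 277.3 and 264.7 CPM in cortex and 288.3, 386.7 and 348.2 CPM in striatum (0.53, and 0.23 without both). Clearance receptors (14 above 0 and 9 below), complement (9 and 8), polycomb (7 and 6), circadian clock (8 and 7) and MHC class I genes (5 and 7) were split in direction.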
